A study of Mus musculus with 16 samples.

Results

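The Nr4a nuclear receptors are the genes Nr4a1, Nr4a2 and Nr4a3, which are 3 of the 22372 protein-coding genes in the deposited table of mouse heart ventricle RNA. They were taken by symbol, and they had been singled out for the way THZ1 moved them in sham-operated hearts and in hearts under pressure overload. Drug differences of these 3 genes are therefore given here as values with no test. All 3 passed the filter of at least 10 normalized counts in at least 4 libraries, and 13331 genes did so in all. Normalized counts are reads per gene divided by a size factor of the library.

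Transverse aortic constriction (TAC) narrows the aorta with a suture and loads the left ventricle with pressure, and the sham operation leaves the suture out. THZ1 binds covalently to Cdk7, Cdk12 and Cdk13 and blocks these kinases of RNA polymerase II. C57BL/6J mice, 10 to 12 weeks old when the experiment began, made up 4 groups of 4 libraries. Sham-Veh had the sham operation and vehicle, Sham-THZ1 the sham operation and THZ1, TAC-Veh the constriction and vehicle, and TAC-THZ1 the constriction and THZ1. THZ1 was injected into the peritoneum at 10 mg/kg, 2 times a day, from day 1 to day 60 after the operation, and the study's methods state that all mice were male and give dimethyl sulfoxide with dextrose in water as the vehicle. Dose and age are given here as the labels have them, and the methods differ in stating the same daily total as a daily dose and a narrower range of ages. Each library came from a small piece of ventricle, so it mixed the cell types of the heart. In such bulk samples, fewer cells of a type and less RNA per cell cannot be told apart.

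Nr4a1 (also called Nur77), Nr4a2 (Nurr1) and Nr4a3 (Nor1) are orphan nuclear receptors whose ligand-binding domain lacks the usual open pocket, so that their activity follows largely from how much of them a cell makes. They are immediate early genes, with transcripts that rise quickly and briefly after hormonal, mechanical or adrenergic signals, often through cAMP, protein kinase A and CREB. As monomers they bind a DNA element called the NBRE, and Nr4a1 and Nr4a2, unlike Nr4a3, also pair with the retinoid X receptors. In muscle they are known as regulators of genes for glucose and lipid use.

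The sequence before each start site is shown because the 3 genes share a feature there. RefSeq gives the 250 bases upstream on the GRCm38.p6 build, and each stretch was found once, letter for letter, on its chromosome of NCBIM37 (mm9), the build of the deposited data. Capitals mark the half-site of the cAMP-response element, which is TGACG on the printed strand and CGTCA on the other, and all sequences run 5′ to 3′.

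Nr4a1 (chr15:101266596-101266845 on GRCm38.p6, chr15:101097027-101097276 on NCBIM37, plus strand): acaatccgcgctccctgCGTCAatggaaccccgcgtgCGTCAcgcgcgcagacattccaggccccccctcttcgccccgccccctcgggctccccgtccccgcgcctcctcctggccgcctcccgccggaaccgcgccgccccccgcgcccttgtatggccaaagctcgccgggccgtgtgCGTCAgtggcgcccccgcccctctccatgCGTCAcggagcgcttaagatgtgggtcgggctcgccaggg

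Nr4a2 (chr2:57124004-57124253 on GRCm38.p6, chr2:56976415-56976664 on NCBIM37, minus strand): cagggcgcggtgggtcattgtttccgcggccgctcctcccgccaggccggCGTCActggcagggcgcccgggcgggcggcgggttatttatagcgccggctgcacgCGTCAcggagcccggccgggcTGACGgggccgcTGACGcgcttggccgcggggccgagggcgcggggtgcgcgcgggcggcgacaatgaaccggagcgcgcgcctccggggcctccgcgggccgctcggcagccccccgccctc

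Nr4a3 (chr4:48045055-48045152 on GRCm38.p6, chr4:48057927-48058024 on NCBIM37, plus strand): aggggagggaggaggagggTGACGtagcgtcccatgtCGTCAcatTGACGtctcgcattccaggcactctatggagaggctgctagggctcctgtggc

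Only 98 bases are printed for Nr4a3, since GENCODE on NCBIM37 starts the gene 152 bases before the RefSeq site. In the full 250 bases each of the 3 genes held 4 half-sites. Of 32851 promoters in the RefSeq table, searched in the same window on both strands, 17.8% held at least 1 half-site, 0.688% at least 3, and 45 promoters (0.137%) at least 4. The table lists some genes with several promoters, so these shares are of promoters and not of genes. They also take no account of base makeup, and G and C made up 74.4% of the window of Nr4a1, 80% of that of Nr4a2 and 63.6% of that of Nr4a3. The half-site of Nr4a3 nearest the RefSeq site, at -147 to -143, lies inside the gene as GENCODE starts it. All 4 half-sites of Nr4a1 were on the opposite strand, from base -233 to base -36, whereas Nr4a2 and Nr4a3 had some on each strand. None of the 3 windows held the whole palindromic element TGACGTCA, which contains the half-site on both strands and was in 1.55% of promoters. None held the NBRE (AAAGGTCA, 1.34% of promoters) or the CArG box bound by serum response factor (1.47%). A match is a run of letters and does not show that a factor binds there.

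**Figure D1:**
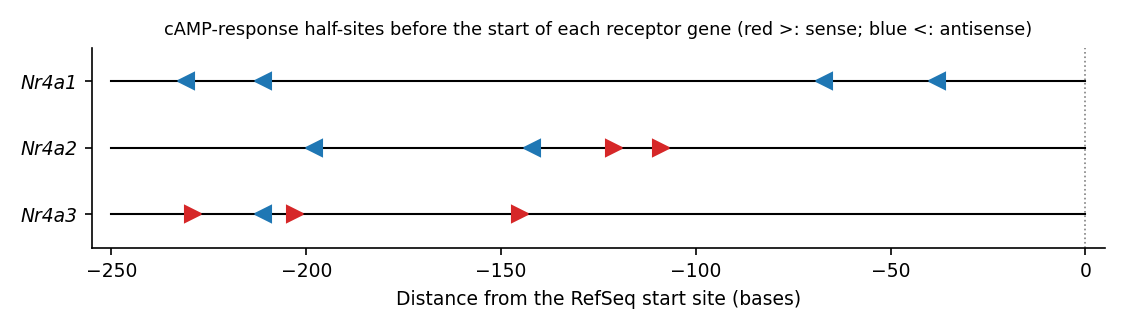
The 250 bases before the RefSeq start site of Nr4a1, Nr4a2 and Nr4a3 are drawn as lines, with the distance from the start site in bases on the horizontal axis and each cAMP-response half-site as an arrowhead (red, on the strand of the gene, and blue, on the opposite strand). Each gene has 4 half-sites, and those of Nr4a3 lie in the distal part of the window, between -231 and -143.

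In the deposited build, Nr4a1 (ENSMUSG00000023034.6) spans chr15:101097277-101105223 on the plus strand, Nr4a2 (ENSMUSG00000026826.5) chr2:56959241-56976414 on the minus strand, and Nr4a3 (ENSMUSG00000028341.3) chr4:48058025-48099319 on the plus strand. No other annotated gene overlapped them. Stretches of 40 bases in their coding transcripts that also occur in another gene numbered 0 of 2435 for Nr4a1, 10 of 3739 for Nr4a2 and 22 of 5769 for Nr4a3.

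The libraries held 21.4 M to 35.8 M reads in protein-coding genes, with a median of 28.2 M. At this depth the recovered reads per library were 133 to 1076 for Nr4a1, 17 to 106 for Nr4a2 and 80 to 333 for Nr4a3, so that values of Nr4a2 carried the largest counting error of the 3. The labels give no sequencing batch or date. Cardiomyocyte markers were abundant in every library, and the atrial markers Myl7, Sln and Bmp10 and the T cell markers Cd3e, Cd3d and Cd8a were under 10 normalized counts in all 16. The remaining atrial marker, Myl4, was at 25.1 to 81.1. Of the remaining T cell markers, Cd4 had a mean of 23.1, and Cd3g reached 10 in some library but did not pass the filter.

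Nr4a3 was low in vehicle-treated sham hearts and close to 3 times higher with either the drug alone or the constriction alone, whereas hearts with both were between these levels. In Sham-Veh its normalized counts were 84.9, 70.6, 103 and 91.9. In Sham-THZ1 they were 253, 258, 223 and 229. All 4 values with the drug were above all 4 without it, and the spread was small in both groups, with means of 87.7 ± 13.7 and 241 ± 17.4 (SD, n = 4). In TAC-Veh the values were 392, 177, 250 and 250, with a mean of 267 ± 90.0. In TAC-THZ1 they were 193, 111, 127 and 105, with a mean of 134 ± 40.6. Here 3 of the 4 values with the drug lay below every value without it, and the first TAC-THZ1 library lay above the second TAC-Veh library.

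On the log2 scale of the normalized count plus 1, the drug difference of Nr4a3 was 1.46 ± 0.21 (SE) in sham and -0.97 ± 0.21 in TAC. The difference between these differences, TAC minus sham, was -2.43 ± 0.30. These are the values that chose the gene, and they are placed only for scale: the drug difference in sham was the 6th highest and the difference of differences the 43rd lowest of 13331 genes. The 2 drug differences share no library. Leaving out any 1 library kept the sham value between 1.36 and 1.54 and the TAC value between -1.16 and -0.77. The constriction went with a difference of 1.55 ± 0.21 under vehicle and of -0.88 ± 0.21 under THZ1, and all 4 values of Nr4a3 in each of these pairs of groups stood apart. TAC-Veh and Sham-THZ1 overlapped, and they were the highest groups in order of their means, followed by TAC-THZ1 and then Sham-Veh, each apart from the group above it.

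Among the receptors, only Nr4a3 had groups that did not overlap in these 4 comparisons. Between Sham-THZ1 and Sham-Veh this held for 1 of the 3 receptors, higher with the drug, and 11.3% of all 13331 genes were separated, 6.29% upward and 5.05% downward. Between TAC-THZ1 and TAC-Veh it held for 0 of 3, against 20% of genes, 9.53% upward and 10.5% downward. Between TAC-Veh and Sham-Veh it held for 1 of 3, higher in TAC, against 37.3% of genes, 18.2% upward and 19.1% downward. Between TAC-THZ1 and Sham-THZ1 it held for 1 of 3, lower in TAC, against 33.4% of genes, 15.7% upward and 17.7% downward. Since the genes were chosen on these groups, nothing is read from the counts.

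**Figure D2:**
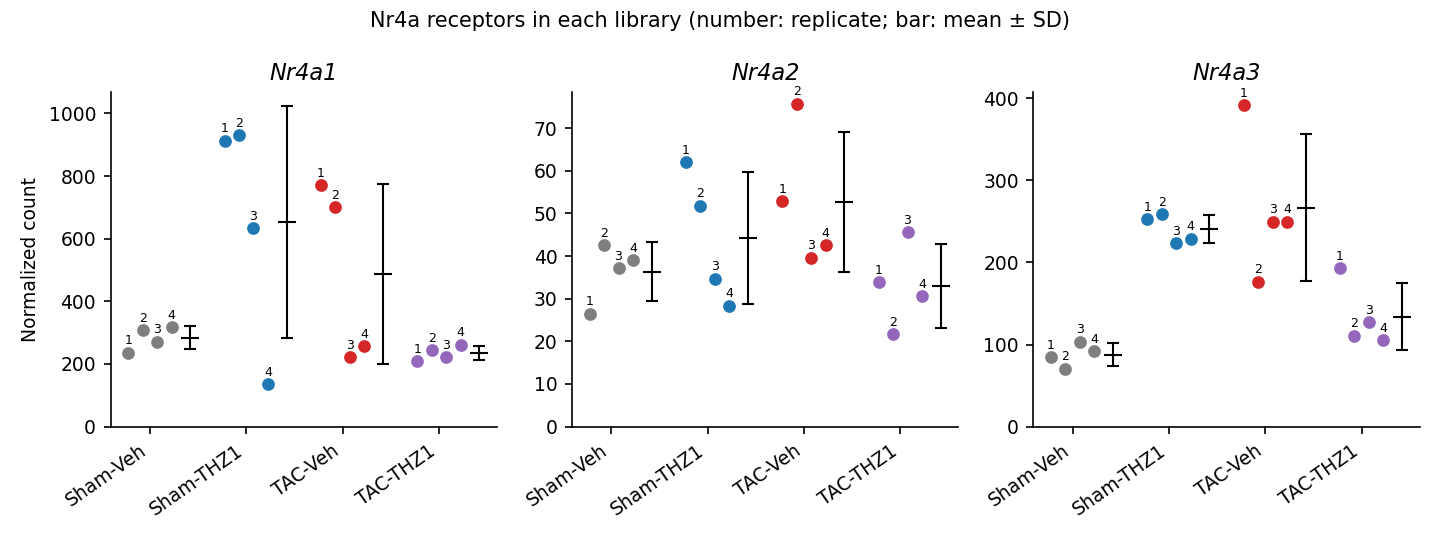
Normalized count (vertical axis, from 0, a separate scale for each gene) of Nr4a1, Nr4a2 and Nr4a3 in the 16 libraries, with 1 point per library labelled by its replicate number and the mean ± SD of the 4 libraries beside them. Nr4a3 is tight in Sham-THZ1, at 223 to 258, while Nr4a1 ranges from 135 to 930 in the same libraries.

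Nr4a1 had the same directions but was far less uniform within groups. In Sham-Veh its normalized counts were 237, 307, 271 and 317. In Sham-THZ1 they were 914, 930, 633 and 135, so that 3 libraries were above every Sham-Veh library and the fourth was below all of them. TAC-Veh split likewise, with 771 and 701 in the first pair of libraries and 221 and 257 in the other. In TAC-THZ1 the values came back together, at 210, 243, 222 and 261. The group means were 283 ± 36.7, 653 ± 371, 488 ± 289 and 234 ± 22.8 (SD, n = 4) in the order named, and every group overlapped the next in rank.

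The drug difference of Nr4a1 was 0.88 ± 0.49 (log2, SE) in sham and -0.84 ± 0.49 in TAC, with a difference of -1.72 ± 0.70 between them. The constriction went with 0.57 ± 0.49 under vehicle and -1.15 ± 0.49 under THZ1. Without the fourth Sham-THZ1 library the drug difference in sham was 1.53, the highest value over the 16 ways of leaving out 1 library, of which the lowest was 0.60. Within Sham-THZ1 the SD of Nr4a1 on the log2 scale was 1.32, the 4th highest of 4831 genes within a factor of 2 of its mean level, whose median SD was 0.08. Within TAC-Veh it was 0.94 and ranked 31st, with a median of 0.18. In Sham-Veh and TAC-THZ1 it was 0.19 and 0.14.

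Nr4a2 was the scarcest of the 3 and the least different between groups. Its normalized counts were 26.5, 42.5, 37.1 and 39.1 in Sham-Veh and 62.0, 51.9, 34.7 and 28.4 in Sham-THZ1. In TAC-Veh they were 52.9, 75.8, 39.6 and 42.6, and in TAC-THZ1 33.9, 21.6, 45.6 and 30.7. Every group overlapped every neighbour in the order of the means. The drug difference was 0.23 ± 0.27 (log2, SE) in sham and -0.66 ± 0.27 in TAC, and the difference between them was -0.90 ± 0.39. Under vehicle the constriction went with 0.50 ± 0.27 and under THZ1 with -0.40 ± 0.27.

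Per kilobase of exon, Nr4a1 was the most abundant receptor in every library. It had 54.5 to 376 normalized counts per kilobase, where Nr4a3 had 11.8 to 65.4 and Nr4a2 5.33 to 18.7. In Sham-Veh the means per kilobase were 114 ± 14.8 for Nr4a1, 14.6 ± 2.30 for Nr4a3 and 8.94 ± 1.70 for Nr4a2 (SD, n = 4). In the fourth Sham-THZ1 library Nr4a1, at 54.5, was closest to Nr4a3, at 38.2.

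The difference between TAC and sham, averaged over vehicle and THZ1, can be tested in a way that does not use the values that chose the receptors. Hearts with THZ1 enter this average, so it is not the difference with the constriction alone, which is given above with no test. By limma, 0 of the 3 receptors were called in this comparison, where 49.9% of all genes were, 24.4% higher and 25.5% lower. Called means a limma p under 0.05 after Benjamini-Hochberg adjustment over all genes, and 1 receptor, Nr4a3, was under 0.05 before adjustment (0.0383). edgeR likewise called 0 and DESeq2 called 1. The averaged differences were -0.29 ± 0.35 (log2, SE) for Nr4a1, 0.05 ± 0.19 for Nr4a2 and 0.33 ± 0.15 for Nr4a3, with limma adjusted p of 0.514, 0.841 and 0.0716. Exact two-sided permutation of the surgery labels within each treatment, over 4900 arrangements, gave p = 0.535, 0.827 and 0.373. For Nr4a3 this average lies between values of opposite sign, 1.55 under vehicle and -0.88 under THZ1. The signs were also opposite for Nr4a1 (0.57 and -1.15) and Nr4a2 (0.50 and -0.40). Both differences of a gene widen the spread of its permuted values. The permutation could therefore hardly find an average smaller than either, and nothing is read from its p. On the recovered reads Nr4a3 was at 0.38 with DESeq2, with an adjusted p of 0.0356, and at 0.38 with edgeR, with an adjusted p of 0.0507. With the replicate number as a block its limma adjusted p was 0.0383. Leaving out 1 library at a time gave Nr4a3 adjusted p of 0.0183 without the second TAC-Veh library (0.42) and 0.0480 without the fourth TAC-THZ1 library (0.38). Without the fourth Sham-THZ1 library Nr4a1 was at -0.61, with a limma adjusted p of 0.0419.

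The deviation of each library from its group mean is also free of the differences between groups, and it shows how the receptors vary among hearts that were treated alike. Nr4a1 and Nr4a2 varied together (Pearson r = 0.67, exact two-sided permutation within groups p = 0.0104, adjusted over the 3 pairs 0.0312, n = 16). By rank the relation was weaker and did not pass the correction (Spearman rho = 0.58, exact permutation p = 0.0339, adjusted 0.102). Without the fourth Sham-THZ1 and the third TAC-Veh libraries, the farthest from the median of Nr4a1, r was 0.53. Over the 8 libraries of Sham-THZ1 and TAC-Veh r was 0.84, and over the 8 of Sham-Veh and TAC-THZ1 it was 0.18.

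No such relation was detectable for Nr4a3 over these 16 libraries. Its r was 0.08 with Nr4a1 (exact permutation p = 0.806, adjusted 0.955) and 0.02 with Nr4a2 (exact permutation p = 0.955, adjusted 0.955), with rho of 0.13 (p = 0.689) and 0.14 (p = 0.618) and an adjusted p of 0.689 for both by exact permutation. Without the 2 farthest libraries these r were 0.04 and -0.12. Over the 8 libraries of Sham-THZ1 and TAC-Veh they were 0.19 and -0.11, and over the 8 of Sham-Veh and TAC-THZ1 they were -0.54 and 0.19. In the Sham-THZ1 library where Nr4a1 was at 135 and Nr4a2 at 28.4, the lowest of their group, Nr4a3 was at 229.

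Among all genes, Nr4a1 deviated most like Sik1, a salt-inducible kinase that CREB induces and that restrains the CREB coactivators, with r = 0.90 over the 16 libraries. Sik1 was at 1289, 986, 1003 and 447 in Sham-THZ1 and at 1339, 860, 544 and 653 in TAC-Veh. Its lowest Sham-THZ1 library was the fourth, and its highest TAC-Veh libraries were the first and second, as for Nr4a1. Fos, the AP-1 subunit that marks recent stimulation of a cell, ranked 6th of 13330 genes in this likeness (r = 0.83). It was at 95.4, 150, 151 and 30.4 in Sham-THZ1 and at 201, 182, 34.7 and 46.8 in TAC-Veh. Dusp1, a phosphatase of MAP kinases (r = 0.81), and Btg2, an antiproliferative immediate early gene (r = 0.80), ranked 13th and 15th. Ranks 2 to 5 were held by Ptgs2 (r = 0.88), Gm6404 (0.85), Gls2 (0.85) and Plk3 (0.83). Of these, Gm6404 and Gls2 were low, with means of 19.9 and 13.5 normalized counts. Fos, Dusp1 and Btg2 were picked after their values were seen. In the window searched above, the RefSeq promoters held 2 half-sites for Fos, 3 for Dusp1 and 2 for Btg2, the last pair with a whole element each, and no promoter was listed for Sik1. Those of Btg2 are the 2 strands of its whole element. Other genes searched held fewer or as many, with 1 for Atf3, 0 for Pdk4 and 0 to 2 for the promoters of Egr2. At least 2 half-sites were in 3.9% of all promoters. Half-sites were not looked up for Ptgs2, Gm6404, Gls2 and Plk3, which ranked above Fos. Whether genes that deviate like Nr4a1 hold more half-sites was therefore not tested.

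Of 20 other immediate early genes, most of them transcription factors, that passed the filter, 14 had an r above 0.5 with the deviations of Nr4a1, where 4.63% of all genes did. The list's median r was 0.57 for Nr4a1, 0.45 for Nr4a2 and 0.11 for Nr4a3, beside medians over all genes of -0.01, -0.01 and 0.01. Genes within 1 library share its depth and makeup, so these correlations are descriptions. The deviations of Nr4a1 had an r of -0.06 with the total reads of the library and of -0.30 to 0.37 with the summed markers of 11 cell types. Those of Nr4a2 had 0.41 with total reads and -0.51 to 0.62 with the markers, and those of Nr4a3 -0.38 and -0.24 to 0.56. The part of cell makeup and depth in these deviations was not tested.

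**Figure D3:**
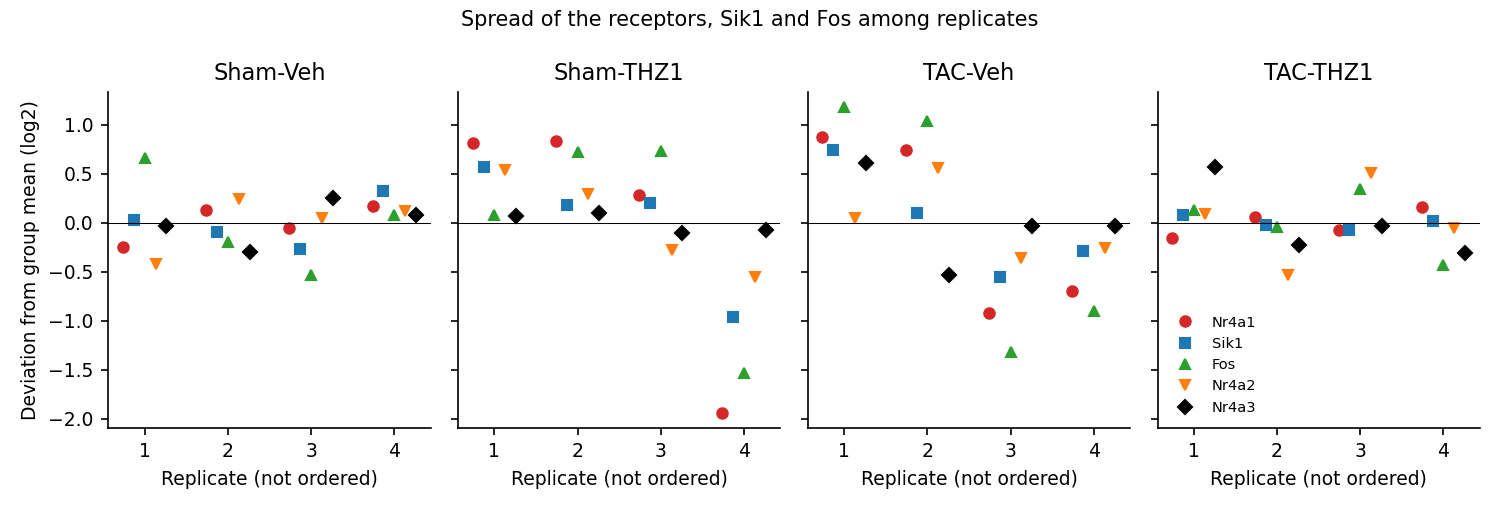
Deviation of each library from the mean of its group (vertical axis, log2 of the normalized count plus 1) for Nr4a1, Nr4a2, Nr4a3, Sik1 and Fos, in 1 panel per group with the replicates, which have no order, on the horizontal axis. In Sham-THZ1 and TAC-Veh the points of Nr4a1, Sik1 and Fos lie on the same side of 0 in each library, while those of Nr4a3 in Sham-THZ1 stay near 0.

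Over the levels themselves, which hold the differences between groups as well, the genes most like Nr4a1 were Sik1 (r = 0.91), Fos (0.86), the chaperone partner Dnajb1 (0.85), the kinase Stk38l (0.81) and the mitochondrial carrier Slc25a25 (0.81). Those most like Nr4a3 were Unc119b (r = 0.83), Map3k9 (0.83), Arsa (0.81), Rab43 (0.80) and Phc2 (0.80). The group means of these 5 genes spanned a smaller fold than those of Nr4a3. Unc119b, for example, went from 462 in Sham-Veh to 606 in Sham-THZ1, and from 558 in TAC-Veh to 485 in TAC-THZ1. Nr4a2 ranked 18th in likeness to Nr4a1 (r = 0.71) and Nr4a3 ranked 444th (r = 0.43).

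A drug difference of at least 0.5 (log2) in size, upward in sham and downward in TAC, was seen in 50 of 13331 genes (0.375%). Nr4a1 and Nr4a3 were among them and Nr4a2 was outside, with its 0.23 in sham. The converse, lower in sham and higher in TAC, was seen in 34. Few genes were at least 0.5 higher with the drug in sham at all. Of these 203 genes, 50 were at least 0.5 lower in TAC and 57 at least 0.5 higher. The receptors were chosen on these values, so nothing is read from their place among the 50. Ranked by the difference between the drug differences, Nr4a3 was the 8th of the 50, and Nr4a1 the 21st. The first 5 were C1qtnf3 (-4.41 ± 0.96, SE), Angptl4 (-3.52 ± 0.55), Vgll2 (-2.94 ± 0.58), St14 (-2.83 ± 0.70) and Adamts4 (-2.74 ± 0.64). Of these only Angptl4, an inhibitor of lipoprotein lipase, had a mean above 100 normalized counts, at 171, near the 182 of Nr4a3, and C1qtnf3, Vgll2, St14 and Adamts4 had means of 13.5 to 20.0. The SE of Nr4a3, 0.30, was below that of each of them. At a limit of 1 in each direction 3 genes were left, and no receptor was among them.

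**Figure D4:**
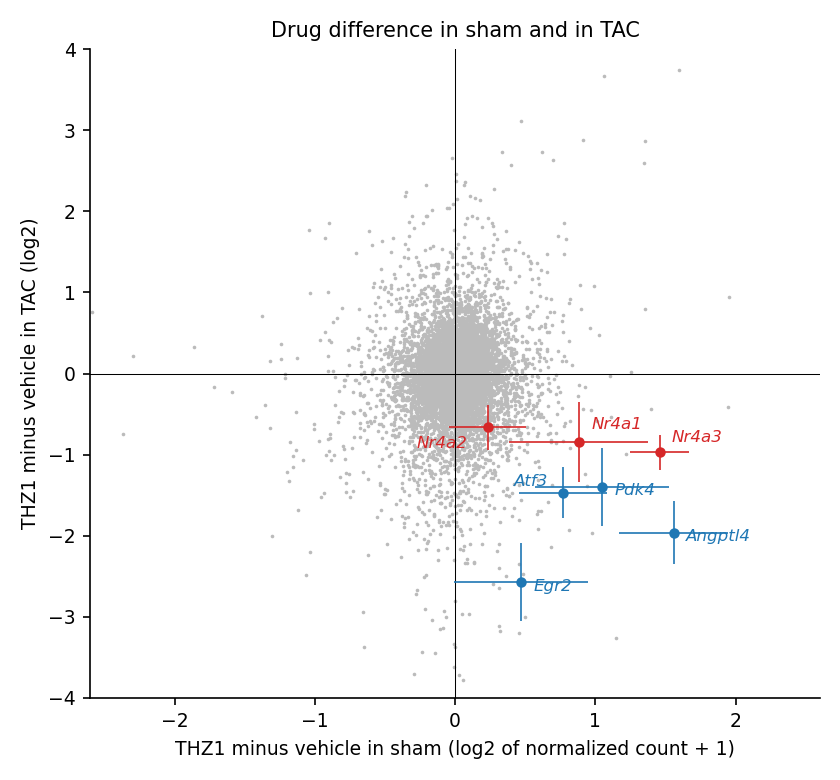
Difference between THZ1 and vehicle in sham (horizontal axis, log2 of the normalized count plus 1) against that in TAC (vertical axis, log2) for 13328 of the 13331 genes (grey; 3 lie outside the axes), with Nr4a1, Nr4a2 and Nr4a3 in red and Angptl4, Pdk4, Atf3 and Egr2 in blue, bars giving the SE. All 7 lie at the lower right, higher with the drug in sham and lower with it in TAC, with Nr4a3 at 1.46 and -0.97.

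The genes around the receptors were tested across the whole table. With THZ1 in sham, limma called 0 of the 111 list genes tested, at a background of 9 genes in 13331 (0.0675%, with 0.0225% higher and 0.045% lower). At an unadjusted p under 0.05 there were 19, beside 917 of all 13331 genes, and DESeq2 and edgeR also called 0. Fitting only the 2 sham groups gave 465 genes called, 18 of them in the lists. With THZ1 in TAC the call depended on the fit in the other direction. All groups together gave 3918 genes called, with 43 in the lists, and the TAC groups alone gave 1399, with 15 in the lists.

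Of 20 other immediate early genes tested, 9 rose with TAC under vehicle, none fell and 11 were not called (45% of all genes were called, 21.4% higher and 23.6% lower). Egr2, a zinc-finger factor, rose by 2.82 ± 0.48 (log2, SE, limma adjusted p = 0.000205), and Atf3, a stress-induced factor that binds cAMP-response elements, rose by 2.29 ± 0.31 (limma adjusted p = 2.96e-05). Maff and Myc also rose, by 1.82 ± 0.33 and 1.04 ± 0.24. With THZ1 in TAC 6 of the 20 fell, none rose and 14 were not called (29.4% of all genes were called, 15.1% higher and 14.2% lower), and the TAC groups alone left 2 of the 6 calls, Egr2 and Atf3. The differences were -2.57 ± 0.48 for Egr2, -1.47 ± 0.31 for Atf3, -1.02 ± 0.33 for Maff and -0.74 ± 0.24 for Myc. The last pair lost the call in 4 and 3 of the 16 fits without 1 library, each time without the first or second TAC-Veh library or a TAC-THZ1 library. Under THZ1, TAC raised 2 of the 20 and lowered 2 (24.2% of all genes were called, 11.4% higher and 12.8% lower). In sham the drug differences of this list had a median of 0.33, above 0 in 16 of 20. No member was called there, and 4 were called higher in the sham groups alone. The count of all genes called in that fit is given above, with no split by direction. In the lists described below, it called 3 of 17 upstream factors higher and 1 lower, and 3 of 35 other nuclear receptors higher and 3 lower. It called 2 of 9 lipid genes and 1 of 9 glucose genes higher, 2 of 15 clock genes lower and 0 of 10 cAMP-responsive genes.

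The drug difference was lower in TAC than in sham for 4 of these 20, and higher for none (10% of all genes were called, 5.62% lower and 4.4% higher). These were Egr2 (-3.04 ± 0.68, limma adjusted p = 0.0126), Atf3 (-2.24 ± 0.44, 0.00715), Fosl2, a further AP-1 subunit (-1.06 ± 0.25, 0.0173), and Btg2 (-0.93 ± 0.26, 0.0356). The first 3 kept the call without any 1 library, and Btg2 lost it in 11 of 16 such fits. The list's median was -0.72, beside 0.02 for all genes and the receptors' -1.72, -0.90 and -2.43. Atf3 was at 90.2, 53.7, 56.6 and 78.1 in Sham-Veh and at 137, 128, 104 and 102 in Sham-THZ1, and at 653, 442, 229 and 193 in TAC-Veh and 121, 77.7, 149 and 151 in TAC-THZ1. All 4 TAC-Veh libraries were above all others. Its difference was 2.29 with the constriction and 0.77 ± 0.31 with the drug in sham, beside 1.55 and 1.46 for Nr4a3, and both comparisons share the Sham-Veh libraries.

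Of 10 genes known to respond to cAMP and CREB, 2 rose and 2 fell with TAC under vehicle, beside 21.4% and 23.6% of all genes, and 1 rose and 3 fell with THZ1 in TAC, beside 15.1% and 14.2%. The TAC groups alone called 0 of the 10 with THZ1. Gem, a small GTPase that limits calcium channels, rose by 0.84 ± 0.25 (log2, SE) with TAC and fell by 0.76 ± 0.25 with THZ1 in TAC. Ppargc1a, the coactivator of mitochondrial genes, moved the other way, by -0.79 ± 0.23 and 0.70 ± 0.23. Both calls with THZ1 in TAC were lost in 4 of the 16 fits without 1 library. For the difference of the drug differences limma called 0 of the 10, with 4 at an unadjusted p under 0.05. Of all 13331 genes 10% were called in this comparison, and 3618 had an unadjusted limma p under 0.05. Of the 17 upstream factors tested, which are CREB and its coactivators, the MEF2 and SRF factors and their regulators, 10 fell with TAC under vehicle and 1, Crem, rose (0.35 ± 0.09). Mef2d fell by 0.75 ± 0.12 and Mef2a by 0.68 ± 0.08, both being activators of Nr4a1 transcription in other cells. With THZ1 in TAC 3 rose and 1 fell, of which the TAC groups alone called 0, the last again Crem (-0.28 ± 0.09), which is also on the list of cAMP-responsive genes and lost this call in 3 of the fits without 1 library, and no drug difference of the 17 was called different between TAC and sham (9 at an unadjusted p under 0.05).

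Of 35 other nuclear receptors tested in a list of 46, which holds the retinoid X receptors too, 15 fell with TAC under vehicle, none rose and 20 were not called, where 45% of all genes were called. With THZ1 in TAC 13 rose, 2 fell and 20 were not called, where 29.4% of all genes were called, and the TAC groups alone called 6 higher and none lower. The drug difference was higher in TAC than in sham for 4 and lower for none, where 4.4% and 5.62% of all genes were. The mineralocorticoid receptor Nr3c2 fell by 1.25 ± 0.17 (log2, SE) with TAC and rose by 0.82 ± 0.17 with THZ1 in TAC, and its drug difference was 1.21 ± 0.24 higher in TAC than in sham (limma adjusted p = 0.00707). The thyroid hormone receptor Thrb fell by 1.00 ± 0.10 with TAC, and its drug difference was 0.66 ± 0.14 higher in TAC (0.0101). Those of the retinoic acid receptor Rarb (0.90 ± 0.26, 0.0398) and of Nr1d2, a repressor of the clock (0.47 ± 0.12, 0.0284), lost the call in 11 and 6 of the 16 fits without 1 library. Nr1d2 is also on the list of clock genes. All 3 retinoid X receptors, the partners of Nr4a1 and Nr4a2, fell with TAC under vehicle and rose with THZ1 in TAC. Rxra changed by -0.67 ± 0.10 and 0.30 ± 0.10, Rxrg by -0.57 ± 0.12 and 0.68 ± 0.12, and Rxrb by -0.20 ± 0.08 and 0.27 ± 0.08. Without 1 library the call of Rxra with THZ1 in TAC was lost in 4 fits and that of Rxrb with TAC in 12, and in the TAC groups alone only Rxrg of the 3 was called with THZ1.

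Nr4a receptors are known to act on genes of glucose and lipid use in muscle. Of 9 glucose genes, 7 fell and none rose with TAC under vehicle, and 7 rose and none fell with THZ1 in TAC, of which 4 were called in the TAC groups alone. Among all genes 23.6% fell and 21.4% rose with TAC under vehicle, and 15.1% rose and 14.2% fell with THZ1 in TAC. For the difference of the drug differences 4.4% of all genes were called higher and 5.62% lower. The list's median was -0.65 (log2) with TAC under vehicle, 0.49 with THZ1 in TAC and 0.46 for the difference of the drug differences. The 8 cardiomyocyte markers had medians of -0.55, 0.47 and 0.46 in the same comparisons, and their part in the differences of the glucose genes was not tested. Fbp2, the muscle fructose bisphosphatase, fell by 2.02 ± 0.24 (log2, SE) with TAC and rose by 1.49 ± 0.24 with THZ1 in TAC. Slc2a4, the insulin-responsive glucose transporter, fell by 0.68 ± 0.09 and rose by 0.66 ± 0.09. The drug difference was higher in TAC than in sham for Fbp2 (1.29 ± 0.34, limma adjusted p = 0.0261), Eno3 (0.62 ± 0.19, 0.0454), Slc2a4 (0.61 ± 0.12, 0.00759) and Pfkm (0.46 ± 0.13, 0.0351). Of these 4 only Slc2a4 kept the call without any 1 library, since Fbp2 lost it in 5, Eno3 in 13 and Pfkm in 8 of 16 fits.

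Of 9 lipid and uncoupling genes, 4 fell and 1 rose with TAC under vehicle, beside 23.6% and 21.4% of all genes. With THZ1 in TAC 1 rose and 2 fell, beside 15.1% and 14.2%. Cpt1b, which brings fatty acids into mitochondria, fell by 0.52 ± 0.09 (log2, SE) with TAC and rose by 0.46 ± 0.09 with THZ1 in TAC, and Lpin1, a phosphatidate phosphatase, fell by 0.60 ± 0.08 with TAC. Angptl4 and Pdk4 had drug differences that were lower in TAC than in sham, as the receptors did. Angptl4 was at 140, 92.2, 53.9 and 124 in Sham-Veh and at 205, 300, 226 and 481 in Sham-THZ1. It was at 421, 197, 168 and 112 in TAC-Veh and at 72.1, 47.1, 30.1 and 62.3 in TAC-THZ1. The values with and without the drug did not overlap in either surgery, with the drug group above in sham and below in TAC. The difference of the drug differences was -3.52 ± 0.55 (log2, SE, limma adjusted p = 0.00225) and was called in every fit without 1 library. Pdk4, the kinase that shuts pyruvate dehydrogenase when fat is burned, had -2.45 ± 0.68 (limma adjusted p = 0.0325), lost in 8 of 16 such fits. Angptl4 rose by 1.03 ± 0.39 with TAC under vehicle, a call lost without the second or the third Sham-Veh or the first or second TAC-Veh library. Both genes are also known targets of the PPAR receptors. Ucp3, the muscle uncoupling protein, fell by 1.53 ± 0.39 with TAC under vehicle.

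**Figure D5:**
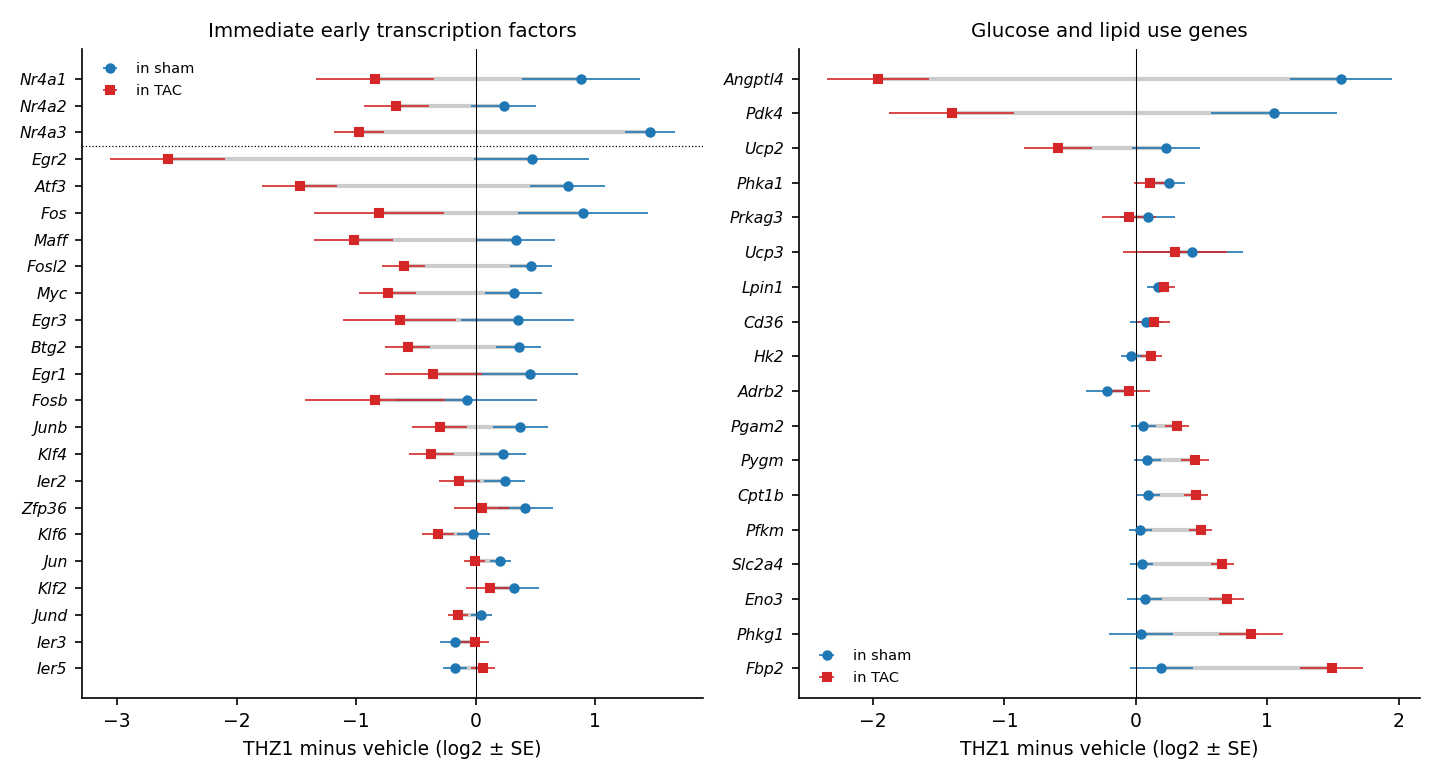
Difference between THZ1 and vehicle (horizontal axis, log2 ± SE) in sham (blue circles) and in TAC (red squares), for the 3 receptors above 20 other immediate early genes (left) and for 18 glucose and lipid genes (right), in each list from the lowest to the highest difference of TAC minus sham. Angptl4 and Pdk4 have the widest gaps on the right with the sham value above, and Fbp2 and other glucose genes stand at the bottom with the TAC value above.

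Clock genes were examined because Nr4a transcripts vary with the hour of the day in several tissues and the labels give no hour of collection. Of 15 tested, 5 drug differences were higher in TAC than in sham and 2 lower, where 4.4% and 5.62% of all genes were. The largest were Arntl, the activator of the clock (-1.70 ± 0.49, log2, SE, limma adjusted p = 0.0386), Hlf (1.19 ± 0.30, 0.022), Per3 (0.87 ± 0.25, 0.0387) and Per2 (0.78 ± 0.22, 0.0363). The call was lost in 10, 2, 7 and 10 of the 16 fits without 1 library. Arntl was among the 50 genes that, like Nr4a3, were higher with the drug in sham and lower with it in TAC. The part of the hour of collection in the receptors' values was not tested.

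Markers of cell types also differed between the groups in which the receptors differed. The summed level of 8 cardiomyocyte markers was 777335 to 1143690 normalized counts in TAC-Veh and 1279060 to 1589680 in TAC-THZ1, and 1446090 to 1547830 in Sham-Veh. That of 5 fibroblast markers was 35575 to 46341 in TAC-Veh, 22179 to 33130 in TAC-THZ1 and 18078 to 20008 in Sham-Veh. With THZ1 in TAC 3 of these 5 genes fell, where 14.2% of all genes did. Neutrophil markers summed to 206 to 7039 in TAC-THZ1 and to 121 to 276 in TAC-Veh, with Ly6g under 10 in all libraries. Between Sham-Veh and Sham-THZ1, where the values of Nr4a3 did not overlap, fibroblast (18186 to 19605 in Sham-THZ1) and cardiomyocyte (1478290 to 1539030) sums overlapped. Of the other sums, that of adipocyte markers had a lower median with the drug in sham (10.5 in Sham-Veh and 6.88 in Sham-THZ1). The rest had higher medians, and all had overlapping ranges. Given here are the 3 sums with the highest within-group r with Nr4a3. Endothelial markers summed to 32430 to 35979 in Sham-Veh (median 35252) and 35529 to 38815 in Sham-THZ1 (36443). Neutrophil markers summed to 49.9 to 97.3 (88.1) and 80.0 to 537 (123), and erythroid markers to 5863 to 6339 (6194) and 5151 to 9088 (7819). Within groups the deviations of Nr4a3 had r of 0.56, 0.54 and 0.55 with these 3 sums. The part of cell makeup in the differences of the receptors, in sham or in TAC, was not tested.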

How the data were processed

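RNA of ventricle pieces was sequenced in 16 libraries from a stranded mRNA kit. The authors aligned reads with TopHat2 2.1.1 to mm9, counted them per GENCODE gene with HTSeq and divided counts by DESeq2 size factors, so the deposited signal is a normalized count per gene and library. No label states that replicates were separate animals, so the p-values measure the spread between these samples. All 22372 gene identifiers were matched to GENCODE on NCBIM37, and 4484 genes were at 0 throughout. Values were whole multiples of a step, which gave back whole reads for 100% of values (tolerance 0.01), with size factors of 0.749 to 1.40. Replicates differed by more than sampling noise (chi-square over its degrees of freedom, 3.06 to 98.3), and none was taken as a duplicate.

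Log2(normalized count + 1) of the 13331 genes with at least 10 normalized counts in at least 4 libraries was fitted in limma 3.58.1 (R 4.3.3), with 1 mean per group, no covariates and an eBayes trend, and p-values were adjusted by Benjamini and Hochberg within each contrast. Called means an adjusted p under 0.05. Fold changes of low genes are understated on this scale. DESeq2 1.42.0 and edgeR 4.0.16 were run on the recovered reads as alternatives. The fits were tested on simulated data. Python 3.11.15, with SciPy and Matplotlib gave permutations and figures.

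The receptors, the gene lists and the marker lists were chosen with earlier results of these data known. Named were the receptors, up to 4 called genes with the largest change per list and contrast, the 5 genes most like a receptor and the 5 with its sign pattern and the largest difference. Dusp1, Btg2, Fos and the further genes named for their deviations were singled out after their values were seen. Promoters are from RefSeq (GRCm38.p6), and protein sequences were not used here.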

Additional observations from a re-analysis of the deposited data

Results flagged for a closer look

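No library of Nr4a1, Nr4a2 or Nr4a3 stood apart from the other 3 of its group by Dixon's criterion, which was applied to 12 groups and passes about 1 in 20 groups when nothing is amiss.

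The drug difference in TAC minus that in sham passed the test of the difference itself for 18 named genes of the lists. Up to 4 genes per list were named because they were called in this comparison, so their passing was fixed by the choice. Among the factors it was -3.04 for Egr2, -2.24 for Atf3, -1.06 for Fosl2 and -0.93 for Btg2, and among the lipid genes -3.52 for Angptl4 and -2.45 for Pdk4. Among the nuclear receptors it was 1.21 for Nr3c2, 0.90 for Rarb, 0.66 for Thrb and 0.47 for Nr1d2. Among the glucose genes it was 1.29 for Fbp2, 0.62 for Eno3, 0.61 for Slc2a4 and 0.46 for Pfkm. Among the clock genes it was -1.70 for Arntl, 1.19 for Hlf, 0.87 for Per3 and 0.78 for Per2. Of the 18 genes only Egr2, Atf3, Fosl2, Angptl4, Nr3c2, Thrb and Slc2a4 kept the call in every fit without 1 library.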

How the results depend on the processing

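The drug differences of the 3 receptors kept their direction under every alternative run. For TAC minus sham averaged over treatments, leaving out each library gave -0.61 to -0.14 for Nr4a1, -0.041 to 0.14 for Nr4a2, which thus changed sign, and 0.23 to 0.42 for Nr4a3. DESeq2 gave 0.38 for Nr4a3, past the threshold. Nr4a2 has no value under the filter on a mean of at least 50 normalized counts, which it did not reach. Why these values moved was not tested.

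Same-numbered libraries of different groups deviated with r of -0.43 to 0.16 over 24 pairs (mean -0.011). Differently numbered ones had -0.23 to 0.31 over 72 pairs (mean 0.0036). No sign that the numbers pair the samples was thus seen, though a tie that leaves little mark on the whole profile would be missed. With the replicate number as a block, Nr4a3 stayed at 0.33 with an adjusted p of 0.0383 and no other call of a receptor changed. Genes called with the block, against those without it, were 7 against 9 with THZ1 in sham, 3747 against 3918 with THZ1 in TAC, 1134 against 1336 for the difference of the drug differences and 6510 against 6658 for TAC minus sham averaged over treatments.

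With THZ1 in sham the genes called were 33 by DESeq2, 465 in the sham groups alone and 3 to 15 without 1 library, and list genes called were 18 in the sham groups alone. With THZ1 in TAC they were 1399 in the TAC groups alone, with 15 list genes, and 28 to 48 list genes without 1 library. For the difference of the drug differences they were 690 to 2479 without 1 library, the highest without the third TAC-Veh library, and list genes 8 to 39. For TAC minus sham under THZ1 they were 1978 to 4200. Genes with the sign pattern of Nr4a3 numbered 308 at a limit of 0.25 and 3 at 1, and 47 to 66 without 1 library, an alternative added after the data had been seen, as was leaving out libraries in the within-group correlations. These were 0.57 to 0.75 for Nr4a1 with Nr4a2, -0.18 to 0.31 for Nr4a1 with Nr4a3 and -0.093 to 0.34 for Nr4a2 with Nr4a3.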
